A study of Mus musculus with 9 samples.

Results

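The transcripts of 45 genes of mitosis were followed in mouse embryonic fibroblasts (MEFs) with and without pairs of histone H3 lysine 9 (H3K9) methyltransferases. The genes build the centromere and the kinetochore, run the spindle assembly checkpoint, drive the spindle or condense the chromosomes. They were taken by symbol from the 47937 genes of the count table. All 45 were found and all 45 passed the filter on low counts, as did 15540 genes in all. RNA from 3 libraries of each of 3 genotypes was sequenced. WT is a clonal MEF line with conditional alleles of Eset1, a further H3K9 methyltransferase gene that tamoxifen treatment can delete. S1S2 stands for the knockout of Suv39h1 with Suv39h2, and G9Gl for that of G9a (gene Ehmt2) with Glp (gene Ehmt1). According to the methods of the study, taken to cover these libraries too, CRISPR/Cas9 frameshifts were made in the WT line and clones were kept in which western blotting found no target protein. The conditional Eset1 alleles are thus shared by all 3 groups, and the labels mention no tamoxifen. According to the same methods, an inducible Cre construct with puromycin resistance was re-introduced after gene disruption, and the lines stayed in puromycin. Whether WT cells carried it is not stated there, so it may go with genotype. Each mutant is taken to be 1 clone, so genotype and clone cannot be told apart, and p-values measure the spread between cultures of a clone.

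Before a cell divides, its chromosomes are condensed and the kinases of mitotic entry are switched on. A kinetochore then assembles on the centromere of each chromatid and binds spindle microtubules, while the checkpoint delays anaphase until every kinetochore is attached. Most of these genes are transcribed late in the cell cycle and are low in resting cells, so in RNA from a whole culture fewer cells in mitosis and less RNA per cell cannot be told apart. In mouse cells the DNA around the centromere is packed as heterochromatin that carries H3K9 methylation.

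Libraries held between 21319778 and 32157623 counts, and the scarcest member of the list, Pttg1, still had at least 235 counts in each. Levels are given as CPM, the reads of a gene relative to the size of its library after TMM scaling, and "higher", "lower", "rose" and "fell" are used of a gene only at an adjusted p of at most 0.01 (edgeR quasi-likelihood F test, Benjamini-Hochberg over the 15540 genes). The targeted genes were checked first. Suv39h1 was at 38.3 to 44.2 CPM in S1S2 against 103 to 113 in WT, but Suv39h2 was higher in S1S2, at 52.7 to 57.4 against 33.2 to 34.4 CPM. Ehmt1 was at 48.6 to 51.8 CPM in G9Gl against 102 to 106 in WT, and Ehmt2 at 51.9 to 57.4 against 114 to 132. A transcript can persist from a frameshifted allele, so these levels do not test the loss of protein. All 10 fibroblast markers listed were present, with a summed level of 9917 to 11414 CPM in WT, 7411 to 7478 in S1S2 and 7928 to 8778 in G9Gl. Of these markers 8 were lower and 1 higher in S1S2, and 6 were lower and 3 higher in G9Gl. Summed epithelial markers were 2.42 to 3.26 CPM in WT, 24.5 to 28.1 in S1S2 and 9.97 to 15.7 in G9Gl. Of these 5 only Krt8 and Krt19 were higher in S1S2 and only Krt19 in G9Gl. Epcam, Cdh1 and Krt18 did not pass the filter, and Epcam averaged 0.27 CPM in WT, 0.20 in S1S2 and 0.07 in G9Gl. Summed muscle markers were 2.86 to 3.26 CPM in WT, 2.66 to 3.81 in S1S2 and 9.93 to 11.4 in G9Gl, 2 of the 4 higher in G9Gl. Endothelial markers summed to 0.12 to 0.19 CPM in WT, 1.55 to 1.70 in S1S2 and 0.79 to 2.35 in G9Gl. Of these 4 only Kdr was higher in S1S2 and only Cdh5 in G9Gl. Macrophage and germline lists stayed at or under 4.90 CPM in every library. The part of such shifts in the results was not tested.

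Mitotic transcripts were lower in G9Gl cells as a broad, shallow shift. In S1S2 cells the shares called higher and lower in the main fit, at the 0.01 threshold, were close to or under those over all tested genes. That did not hold in every alternative. With the looser cutoff of 0.05, 16 of the 45 were lower in S1S2 (23.6% of all tested genes) and 14 higher (25.3%). The share lower in S1S2 also exceeded the background once the median change of each chromosome was taken into account. The 45 genes together made up 8675 to 9216 CPM in WT, 8593 to 8852 in S1S2 and 7417 to 7749 in G9Gl. In G9Gl cells 26 of 45 were lower than in WT, where 16.0% of all tested genes were lower, and only Cenpb was higher, where 19.0% of all tested genes were. The median log2 fold change of the 45 was -0.17, against -0.01 over all tested genes, and 40 of the 45 fold changes were negative. In S1S2 cells 9 of 45 were lower, with a background of 17.6%, and 6 were higher, with a background of 20.3%. The median there was -0.03 against -0.00. No member reached 2-fold in any comparison by edgeR or by DESeq2, although at an unadjusted p under 0.05 the difference was positive for 15 and negative for 16 in S1S2, and positive for 2 and negative for 37 in G9Gl. Over all tested genes those shares were 27.8% and 26.8% in S1S2, and 27.1% and 25.3% in G9Gl. At adjusted p and 2-fold together, 4.66% of all tested genes were higher and 4.34% lower in S1S2, and 6.77% and 3.40% in G9Gl. Called shares depend on level, and among the 8383 tested genes within the members' range of mean CPM 19.3% were lower and 21.03% higher in G9Gl, and 21.3% were lower and 26.0% higher in S1S2. The members' shares in S1S2, 20% lower and 13.3% higher, thus lay below those of genes in this range. The 6 rises in S1S2 became 3 without WT replicate 1, without S1S2 replicate 1 or without S1S2 replicate 2.

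**Figure D1:**
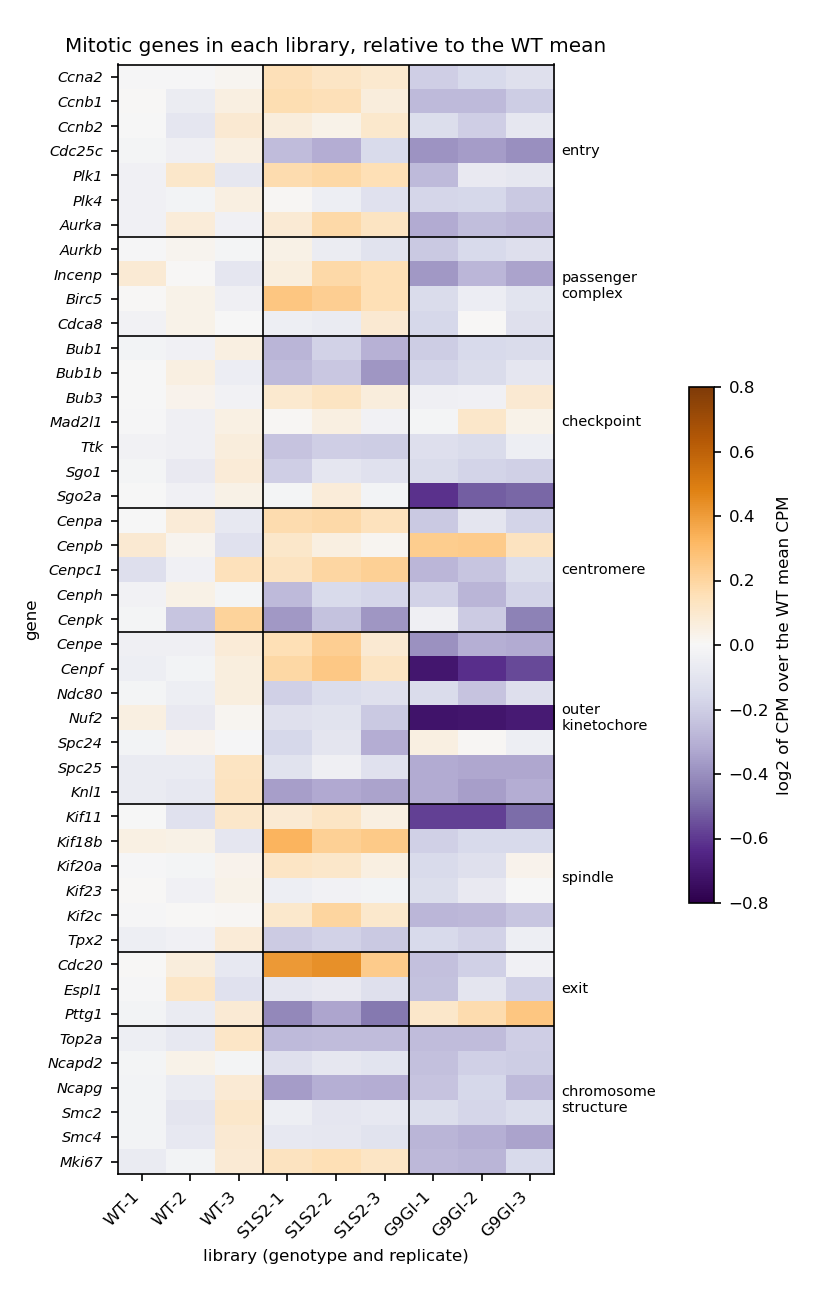
Log2 ratio of the CPM of each of the 45 genes in each library (columns, 3 per genotype) to its WT mean, with genes in rows grouped by role. The G9Gl columns are mostly purple (below the WT mean), with the darkest cells at Nuf2, Cenpf, Sgo2a and Kif11, while the S1S2 columns hold orange and purple rows side by side.

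The mutants were also set against each other directly. In G9Gl, 21 of 45 genes were lower than in S1S2, where 21.1% of all tested genes were lower, and 1 was higher, where 21.6% were. The median was -0.13, against 0.00 over all tested genes. Again no member passed 2-fold by edgeR or DESeq2, where 7.97% of all tested genes were higher and 5.08% lower. At an unadjusted p under 0.05, 6 differences were positive and 25 negative, against 29.1% and 28.7% of all tested genes. Since both mutants are compared with the same WT libraries, their changes are not independent of each other. By its calls against WT each gene fell into a class. Lower in both mutants were 5 genes (Cdc25c, Bub1, Knl1, Top2a and Ncapg), 11.1% of the 45, against 5.55% of all tested genes. With the medians of the chromosomes taken into account, Plk4, Kif11, Ncapd2 and Smc4 were also lower in both. Higher in S1S2 and lower in G9Gl were 4 (Cenpa, Cenpe, Cenpf and Kif18b), 8.89% against 2.76%. The largest class was that of 17 genes lower in G9Gl without passing the test in S1S2, 37.8% against 7.71%. A further 4 were lower in S1S2 (Bub1b, Ttk, Tpx2 and Pttg1) and 2 higher in S1S2 (Birc5 and Cdc20) without passing the test in G9Gl, where the background was 9.28% and 9.86%, and Cenpb alone was higher in G9Gl without passing in S1S2, with a background of 8.49%. The class of opposite directions held 0 to 5 genes in the alternatives run at the same threshold, and was empty without WT replicate 1. Neither comparison was passed by 12 genes, 26.7% against 45.9% of all tested genes, among them Plk1, Mad2l1, Bub3 and Espl1. Of the tested genes within the members' range of mean CPM, 35.9% passed neither. In that range 7.29% were lower in both mutants, 3.16% higher in S1S2 and lower in G9Gl, and 8.86% lower in G9Gl alone. Lower in S1S2 alone were 11.2%, higher in S1S2 alone 12.6% and higher in G9Gl alone 7.96%. No member was higher in both mutants, against 7.70% of all tested genes and 10.3% in that range.

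Many late cell cycle promoters carry a CHR element, bound by the DREAM and MuvB complexes, and CCAAT boxes, bound by NF-Y. These letters were therefore looked up in RefSeq windows of GRCm38.p6 that run from 250 bases before to 50 bases after a transcript start. Windows were given for 37 of the 45 genes, 41 windows in all. The letters TTTGAA or TTCGAA, on either strand, stood in 63.4% of these windows and in 19.2% of all 32851 promoter windows. CCAAT on either strand stood in 78.0% against 37.4%, and both kinds together in 56.1% against 7.52%. TTCGAA reads the same on both strands, and a motif may share an end base with another. Of the 25 genes with TTTGAA or TTCGAA, 15 were lower in G9Gl and none higher, with a median change of -0.17 on the log2 scale. In S1S2 4 of these 25 were higher and 6 lower. The shares of all tested genes were 16.0% lower and 19.0% higher in G9Gl, and 20.3% higher and 17.6% lower in S1S2. Of the 12 genes without these letters, 6 were lower and 1 higher in G9Gl, with a median of -0.21, and 2 were higher and 1 lower in S1S2. Both sets thus hold genes that fell in G9Gl. The 150 bases before the start are printed for the genes with the largest falls in G9Gl (Nuf2, Cenpf and Kif11), for 2 of the largest rises in S1S2 (Cdc20 and Kif18b) and for the only gene higher in G9Gl (Cenpb), each 5′ to 3′ on the strand of its gene, with the letters searched for, or their reverse complements, in capitals.
Cenpf, chr1:189688087-189688236, minus strand: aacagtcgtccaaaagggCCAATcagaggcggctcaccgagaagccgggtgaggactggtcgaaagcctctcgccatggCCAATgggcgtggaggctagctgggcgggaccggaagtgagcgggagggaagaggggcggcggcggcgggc
Nuf2, chr1:169531465-169531614, minus strand: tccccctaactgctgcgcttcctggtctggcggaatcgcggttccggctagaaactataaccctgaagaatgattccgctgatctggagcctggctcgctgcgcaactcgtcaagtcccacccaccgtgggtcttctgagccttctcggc
Kif11, chr19:37376232-37376381, plus strand: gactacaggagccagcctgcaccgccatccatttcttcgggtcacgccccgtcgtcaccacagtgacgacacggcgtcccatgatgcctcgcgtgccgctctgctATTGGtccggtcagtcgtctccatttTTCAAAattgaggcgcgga
Cdc20, chr4:118437344-118437493, minus strand: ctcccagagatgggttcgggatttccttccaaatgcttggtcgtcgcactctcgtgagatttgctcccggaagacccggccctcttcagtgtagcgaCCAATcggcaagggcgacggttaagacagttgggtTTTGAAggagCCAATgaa
Kif18b, chr11:102925125-102925274, minus strand: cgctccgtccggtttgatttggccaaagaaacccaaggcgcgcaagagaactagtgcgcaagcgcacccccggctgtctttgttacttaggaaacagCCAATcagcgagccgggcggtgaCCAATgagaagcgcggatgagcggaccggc
Cenpb, chr2:131180068-131180217, minus strand: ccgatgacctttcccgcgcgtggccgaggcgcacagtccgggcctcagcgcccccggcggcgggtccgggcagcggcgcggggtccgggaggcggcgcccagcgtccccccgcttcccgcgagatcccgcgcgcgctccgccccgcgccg
Cdc20 has TTTGAA between CCAAT boxes close to the start, and Kif11 has the reverse complement of each. In Cenpf and Kif18b the letters TTTGAA lie just after the start, at bases 3 to 8 and 4 to 9, outside the stretch printed. In Nuf2 and Cenpb none of these letters stood anywhere in the window. A match is a description of the letters, not a bound site.

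Genes of mitotic entry come first in the order of the cycle. Ccna2 and Ccnb1 encode cyclins A2 and B1, Cdc25c the phosphatase that activates the mitotic cyclin-dependent kinase, and Aurka, Plk1 and Plk4 the kinases of spindle poles, mitotic progression and centriole duplication. Of these 7 genes 5 were lower and none higher in G9Gl, and in S1S2 Cdc25c was lower, with 16.0% and 17.6% of all tested genes lower in those comparisons. With the medians of the chromosomes taken into account, Plk4 was also lower in S1S2 (-0.15, adjusted p = 0.00877) and Aurka higher (0.22, adjusted p = 6.10e-04). Ccnb1 had 257, 246 and 267 CPM in WT, 288, 285 and 268 in S1S2, and 214, 213 and 223 in G9Gl. All 3 G9Gl libraries lay below all others, a difference of -0.24 from WT (log2, SE 0.04, adjusted p = 1.60e-04). The S1S2 libraries lay above the highest WT library, but the difference of 0.13 (SE 0.05) did not pass the test (adjusted p = 0.0219). Pseudogenes of Ccnb1 hold 18.9% of its 75-base stretches, so some of its reads may be shared. The other falls in G9Gl were -0.38 for Cdc25c, -0.28 for Aurka, -0.18 for Plk4 (adjusted p = 0.0164 without G9Gl replicate 3) and -0.16 for Ccna2 (adjusted p = 0.0171 without G9Gl replicate 1). Cdc25c also fell by 0.24 on the log2 scale in S1S2 (adjusted p = 0.0113 without S1S2 replicate 2). Antisense genes hold 10.7% of the 75-base stretches of Cdc25c (Gm3550) and 10.8% of those of Ccna2 (Exosc9), so some reads may be shared. Plk1 (0.18 in S1S2 and -0.14 in G9Gl) and Ccnb2 (0.07 and -0.14) passed the test in neither mutant against WT, yet both were lower in G9Gl than in S1S2, by log2 fold changes of -0.31 and -0.20, the latter with an adjusted p of 0.0120 without G9Gl replicate 2.

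**Figure D2:**
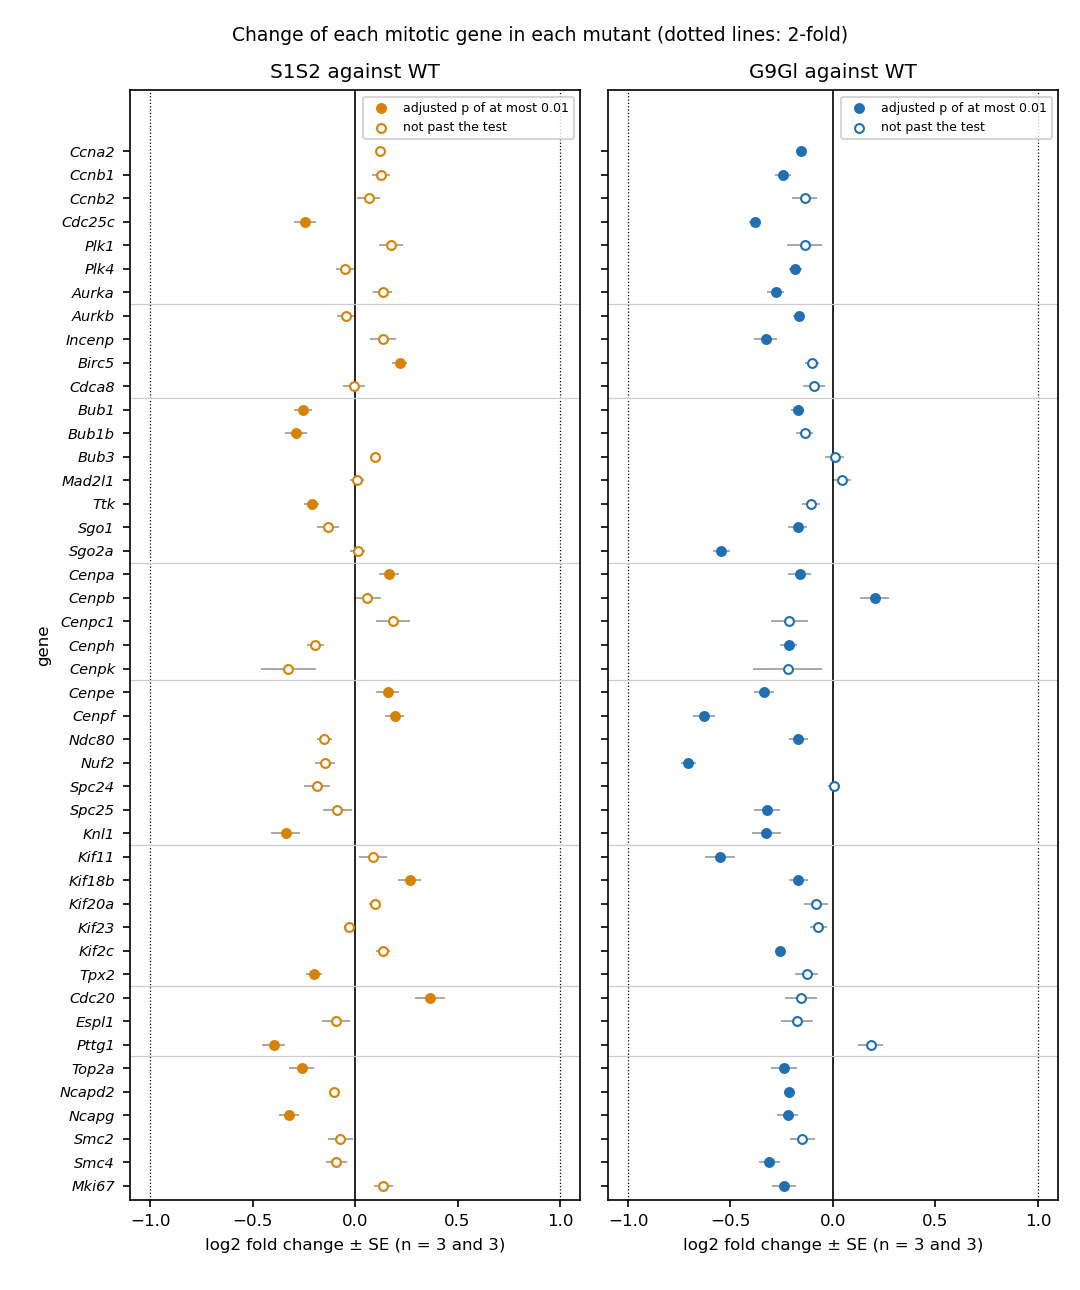
Log2 fold change ± SE of each gene in S1S2 (left, orange) and G9Gl (right, blue) against WT, n = 3 libraries per genotype, with filled points for an adjusted p of at most 0.01, open points for the rest and dotted lines at 2-fold. Points in S1S2 lie on both sides of 0, from -0.40 (Pttg1) to 0.36 (Cdc20), while 40 of 45 points in G9Gl lie below 0, down to -0.71 (Nuf2).

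The chromosomal passenger complex, which corrects wrong attachments, is made of the kinase Aurkb and its partners Incenp, Birc5 (survivin) and Cdca8 (borealin). Aurkb had 88.2, 90.0 and 87.7 CPM in WT, 91.0, 85.0 and 82.3 in S1S2, and 76.3, 79.3 and 81.0 in G9Gl. It was lower in G9Gl (log2 fold change -0.17, SE 0.03, adjusted p = 0.00679), but leaving out any single library of WT or G9Gl other than WT replicate 3 brought the adjusted p to between 0.0108 and 0.0372. Birc5 had 109.7, 112 and 106 CPM in WT, 131, 128 and 122 in S1S2, and 98.5, 105 and 102 in G9Gl. Every S1S2 library exceeded every WT library, a rise of 0.22 (SE 0.04, adjusted p = 5.54e-04), and in G9Gl the difference was -0.10 (adjusted p = 0.0708). Incenp fell by 0.33 on the log2 scale in G9Gl (adjusted p = 3.45e-05), a call that ended once the median of its chromosome was taken into account (-0.16, adjusted p = 0.0139), and Cdca8 passed the test in neither mutant (-0.01 and -0.09). Birc5 was lower in G9Gl than in S1S2, at -0.32. So was Incenp at -0.47, which became 0.04 (adjusted p = 0.570) with the chromosome median.

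Of the 7 genes of the spindle assembly checkpoint and its neighbourhood, 3 were lower in S1S2 and 3 in G9Gl, and none was higher. Over all tested genes 17.6% were lower in S1S2 and 16.0% in G9Gl, and the count in S1S2 became 2 once the chromosome medians were taken into account, without Ttk (adjusted p = 0.0221). The kinases Bub1 and Ttk and the pseudokinase Bub1b (BubR1), which act at unattached kinetochores to hold back the anaphase-promoting complex, were those lower in S1S2. Bub1 had 175, 174 and 185 CPM in WT, 146, 157 and 145 in S1S2, and 154, 159 and 161 in G9Gl. Both mutants lay wholly below WT, S1S2 by -0.25 on the log2 scale (SE 0.04, adjusted p = 1.17e-04) and G9Gl by -0.17 (SE 0.03, adjusted p = 0.00342). The fall in G9Gl did not pass the test without WT replicate 3 (adjusted p = 0.0124) or without G9Gl replicate 1 (adjusted p = 0.0190). Bub1b fell by 0.29 on the log2 scale and Ttk by 0.21 in S1S2, and their differences in G9Gl were -0.14 (adjusted p = 0.0212) and -0.11 (adjusted p = 0.0710). Between the mutants none of these 3 genes passed the test, although Bub1b did in 5 alternatives (0.15 to 0.19, adjusted p from 0.00330 to 0.00804). Bub3 and Mad2l1, checkpoint proteins that bind Bub1b and Cdc20, passed in no comparison, with log2 fold changes against WT between 0.01 and 0.10. Sgo1 and Sgo2a encode shugoshins, which guard cohesin at the centromere, and both were lower in G9Gl. The fall of Sgo1 (-0.17, adjusted p = 0.00607) had an adjusted p between 0.0109 and 0.0283 without any single library of WT or G9Gl other than WT replicate 2. Sgo2a had 109.5, 107 and 113 CPM in WT, 109, 116 and 108 in S1S2, and 71.7, 76.6 and 77.7 in G9Gl, a drop of 31.4% (log2 fold change -0.54, SE 0.04, adjusted p = 2.89e-08). With the median of its chromosome taken into account, the log2 fold change in G9Gl was -0.28 (adjusted p = 7.83e-05). In S1S2 the difference was 0.01 (adjusted p = 0.844). Sgo2a shares 33.1% of its 75-base stretches with other genes, chiefly the antisense neighbour Kctd18, which was itself lower in both mutants (-0.42 in S1S2 and -0.38 in G9Gl), so its value is uncertain.

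At the centromere, Cenpa, the histone H3 variant that marks it, went up in S1S2 and down in G9Gl. It had 131, 139 and 125 CPM in WT, 148, 149.6 and 145 in S1S2, and 114, 123 and 117 in G9Gl, so that the 3 groups did not overlap. The difference between mutants was -0.33 (SE 0.04, adjusted p = 1.37e-05). Against WT S1S2 differed by 0.17 (adjusted p = 0.00717) and G9Gl by -0.16 (adjusted p = 0.00882). The first was close to the threshold with all libraries, with an adjusted p of 0.0141 with no composition factor, 0.0135 with no filter on low counts and 0.0103 with at least 10 counts in every library. Of the fits that left out a single WT or S1S2 library, only that without WT replicate 2 kept it (0.0124 to 0.0357 for the others). The second also gave 0.0103 by DESeq2 and 0.0264, 0.0454, 0.0468 and 0.0338 without WT replicate 1, WT replicate 2, G9Gl replicate 1 and G9Gl replicate 3. Cenpb, which binds a motif in the minor satellite DNA, was the single gene higher in G9Gl. Its CPM was 80.9, 77.1 and 70.1 in WT, 82.1, 78.8 and 76.8 in S1S2, and 89.3, 89.8 and 83.6 in G9Gl. All G9Gl libraries were above the others, a rise of 15.1% (log2 fold change 0.20, SE 0.07, adjusted p = 0.00505), which gave 0.0203, 0.0199 and 0.0235 without WT replicate 3, G9Gl replicate 1 and G9Gl replicate 2. Cenpc1, Cenph and Cenpk belong to the inner plate that links the centromere to the outer kinetochore. Of these Cenph was lower in G9Gl (-0.22, adjusted p = 0.00657), with an adjusted p of 0.0140 by DESeq2 and of 0.0125 to 0.0370 without any single library of WT or G9Gl other than WT replicate 3. Cenpc1 and Cenpk missed the threshold there at -0.21 (adjusted p = 0.0102) and -0.22 (adjusted p = 0.0886). Cenpc1 was past it in 7 alternatives, DESeq2 among them (adjusted p from 0.00103 to 0.00935). It was also lower in G9Gl than in S1S2 (-0.40, adjusted p = 4.29e-05). Cenpk varied most between replicates, with an SE of 0.17.

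In the outer kinetochore 6 of 7 genes were lower in G9Gl, where 16.0% of all tested genes were. Nuf2 and Cenpf had the largest falls of the 45 without regard to position, but both lie on chromosome 1, and with the chromosome medians taken into account they stood at -0.44 and -0.37, with Cdc25c and Kif11 between them at -0.39 each. Nuf2 pairs with Ndc80 to form the microtubule-binding arm of the Ndc80 complex, whose inner end is Spc24 and Spc25. Nuf2 (chromosome 1, 169497934 to 169531464) had 92.3, 84.5 and 89.9 CPM in WT, 81.8, 82.3 and 76.7 in S1S2, and 54.2, 54.3 and 55.1 in G9Gl. It was 38.7% lower in G9Gl than in WT (log2 fold change -0.71, SE 0.04, adjusted p = 1.58e-09) and lower than in S1S2 (-0.56, adjusted p = 3.18e-08), and its difference in S1S2 of -0.15 did not pass (adjusted p = 0.0164). Ndc80 had 77.8, 76.1 and 81.8 CPM in WT, 69.0, 71.3 and 72.0 in S1S2, and 70.9, 66.7 and 71.9 in G9Gl. The mutants overlapped with each other and lay below WT, with -0.17 in G9Gl (SE 0.05, adjusted p = 0.00719) and -0.15 in S1S2 (SE 0.04, adjusted p = 0.0152). Without any single library of WT or G9Gl other than WT replicate 2, the adjusted p in G9Gl was between 0.0115 and 0.0415. Spc25 fell by 0.32 on the log2 scale in G9Gl, while Spc24 stood at 0.01 there and at -0.19 in S1S2 (adjusted p = 0.0145). Within this complex of 4 proteins, the changes in G9Gl therefore ran from 0.01 to -0.71.

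Cenpf (chromosome 1, 189640606 to 189688086), a large coiled-coil protein of the outer plate, showed the widest gap between the mutants. It had 291, 296 and 313 CPM in WT, 342, 357 and 328 in S1S2, and 184, 195 and 203 in G9Gl. The 3 groups did not overlap, S1S2 standing 0.19 above WT on the log2 scale (SE 0.05, adjusted p = 0.00243) and G9Gl at -0.63 (SE 0.05, adjusted p = 5.83e-09). Between the mutants the difference was -0.82 (SE 0.05, adjusted p = 1.24e-10). The rise in S1S2 gave adjusted p-values of 0.0213, 0.0101 and 0.0257 without WT replicate 1, S1S2 replicate 1 and S1S2 replicate 2. Cenpe, the kinesin that carries chromosomes to the spindle equator, followed the same order at lower amplitude, with 0.16 in S1S2 (adjusted p = 0.00909) and -0.33 in G9Gl. Its rise in S1S2 was not past the threshold in 10 alternatives, among them those without WT replicate 1, WT replicate 2, S1S2 replicate 1 and S1S2 replicate 2 (adjusted p from 0.0283 to 0.0772), while its fall in G9Gl was past it in every alternative run. Knl1, the scaffold on which Bub1 and Bub3 dock, fell in both mutants. Its CPM was 247, 245 and 285 in WT, 203, 207 and 205 in S1S2, and 208, 203 and 209 in G9Gl. The changes were -0.34 (SE 0.07, adjusted p = 2.83e-05) and -0.33 (SE 0.07, adjusted p = 4.06e-05), and the mutants differed by 0.01 (SE 0.01, adjusted p = 0.853).

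**Figure D3:**
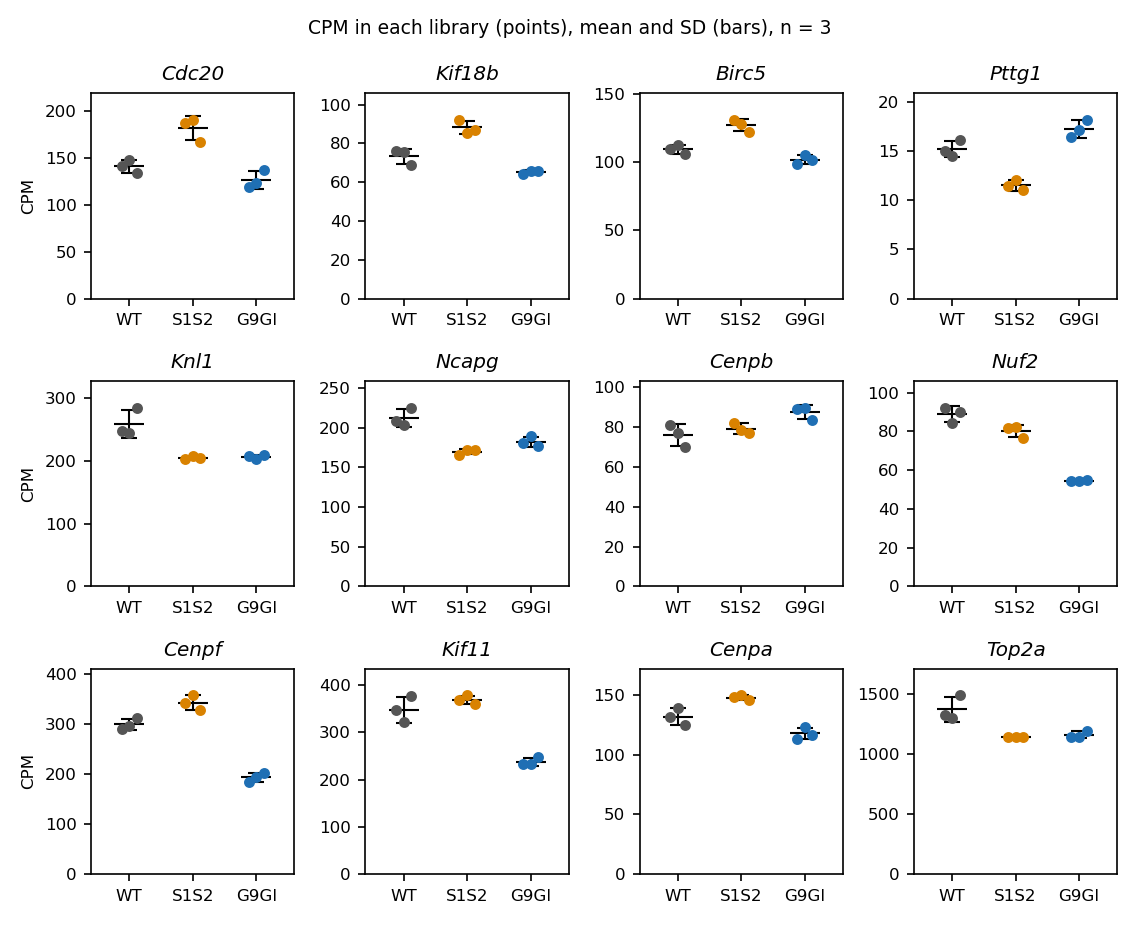
CPM of 12 of the genes in each library (points, 3 per genotype), with the mean and SD as bars and each vertical axis starting at 0. Nuf2, Cenpf and Kif11 are lowest in G9Gl by a wide gap, Cdc20, Kif18b and Birc5 are highest in S1S2, Pttg1 and Ncapg are lowest in S1S2, and Knl1 and Top2a are lower in both mutants.

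Among spindle motors, Kif11 (Eg5), which pushes the spindle poles apart, fell in G9Gl. Kif11 (chromosome 19, 37376403 to 37421859) had 347, 321 and 376 CPM in WT, 369, 378 and 361 in S1S2, and 232, 232 and 247 in G9Gl. It was 31.8% lower in G9Gl than in WT (log2 fold change -0.55, SE 0.07, adjusted p = 8.65e-08), whereas S1S2 overlapped with WT (0.09, SE 0.07, adjusted p = 0.177). With the chromosome medians taken into account it stood at -0.39 in G9Gl and turned to -0.25 in S1S2 (adjusted p = 5.54e-04). Kif18b, a kinesin that trims astral microtubules, had 75.8, 75.3 and 68.8 CPM in WT, 92.1, 85.6 and 86.9 in S1S2, and 64.2, 65.5 and 65.8 in G9Gl. In S1S2 it rose by 20.3% (0.27 on the log2 scale, SE 0.06, adjusted p = 2.42e-04). Its fall in G9Gl (-0.17, SE 0.05, adjusted p = 0.00934) was past the threshold without WT replicate 3 but not without any other single library of WT or G9Gl (adjusted p from 0.0222 to 0.0547). By DESeq2 it had an adjusted p of 0.0124. Kif2c, a microtubule depolymerase, was lower in G9Gl (-0.26), and Tpx2, which nucleates spindle microtubules and activates Aurka, was lower in S1S2 (-0.20). The call of Tpx2 ended once the chromosome medians were taken into account (-0.12, adjusted p = 0.0488). Kif20a and Kif23, kinesins of the midzone and cytokinesis, passed the test in neither mutant against WT, with values between -0.08 and 0.10. Kif20a was lower in G9Gl than in S1S2 (-0.18, adjusted p = 0.00407). Without replicate 1 or 2 of either mutant that difference was not past the threshold (adjusted p from 0.0217 to 0.0290). Kif20a shares 23.3% of its 75-base stretches with the antisense gene Cdc23, so its value is uncertain.

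The anaphase regulators gave both extremes in S1S2 and no call in G9Gl against WT. Cdc20 activates the anaphase-promoting complex, Pttg1 (securin) restrains separase, and Espl1 is separase, the protease that opens cohesin. Cdc20 had 142, 148 and 134 CPM in WT, 188, 191 and 167 in S1S2, and 119, 124 and 138 in G9Gl. In S1S2 it rose by 28.8% (0.36 on the log2 scale, SE 0.07, adjusted p = 7.60e-05), with no overlap, and was -0.16 in G9Gl (adjusted p = 0.0432), where the libraries overlapped with WT. Pttg1 had 15.0, 14.5 and 16.1 CPM in WT, 11.4, 12.1 and 11.1 in S1S2, and 16.4, 17.1 and 18.2 in G9Gl. It was lower in S1S2 (-0.40, SE 0.06, adjusted p = 4.91e-04) and 0.18 in G9Gl (adjusted p = 0.0538), and it was the only gene higher in G9Gl than in S1S2 (0.58, SE 0.06, adjusted p = 7.64e-06). Espl1 did not pass against WT (-0.09 in S1S2 and -0.17 in G9Gl), but in G9Gl it was past the threshold in 6 alternatives (adjusted p from 9.08e-04 to 0.00707), and with the chromosome medians also between the mutants (-0.19, adjusted p = 0.00687). The difference of Cdc20 in G9Gl was past it in 2.

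Of 6 genes of chromosome structure, 5 were lower in G9Gl and 2 in S1S2, where 16.0% and 17.6% of all tested genes were lower, and none was higher in either. With the chromosome medians taken into account, 6 were lower in G9Gl and 4 in S1S2, against 13.8% and 16.0% of all tested genes. Those added in S1S2 were Ncapd2 (-0.14) and Smc4 (-0.19). Top2a, the topoisomerase that untangles sister chromatids, was the most abundant of the 45 per length, at 152 CPM per kb of exon in WT. It had 1326, 1298 and 1487 CPM in WT, 1142, 1144 and 1145 in S1S2, and 1144, 1144 and 1194 in G9Gl. Every mutant library lay below every WT library, S1S2 by -0.26 on the log2 scale (SE 0.06, adjusted p = 2.86e-04) and G9Gl by -0.24 (SE 0.06, adjusted p = 6.37e-04). Ncapg, a subunit of condensin I, had 209, 203 and 225 CPM in WT, 166, 172 and 172 in S1S2, and 181, 189 and 177 in G9Gl. It fell in both mutants, by 0.32 and 0.22 on the log2 scale (adjusted p = 1.56e-05 and 6.29e-04), with 11.0% of its 75-base stretches shared with the overlapping gene Lcorl. The condensin subunits Smc4 (-0.31) and Ncapd2 (-0.21) and the perichromosomal proliferation marker Mki67 (-0.24) were lower in G9Gl, and Smc2 was at -0.15 (adjusted p = 0.0146). Mki67 was at 0.14 in S1S2 (adjusted p = 0.0237), so Top2a and Mki67, often used side by side as proliferation markers, had opposite signs there.

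Position along the genome moved with some of the largest changes. The median log2 fold change of the 1069 tested genes of chromosome 1 was -0.26 in G9Gl and -0.13 in S1S2, and that of the 487 genes of chromosome 19 was -0.17 in G9Gl and 0.34 in S1S2. Sgo2a, Cenpf and Nuf2, 3 of the 4 largest falls in G9Gl, are the members on chromosome 1, and Kif11, the other, and Incenp are those on chromosome 19. When each chromosome's median was entered as an offset in the fit, an alternative added after the data were seen, the changes in G9Gl became -0.28 for Sgo2a, -0.37 for Cenpf, -0.44 for Nuf2 and -0.39 for Kif11, all still past the test. The gap between the mutants at Kif11 shrank from -0.64 to -0.13 (adjusted p = 0.0373), and that at Incenp from -0.47 to 0.04 (adjusted p = 0.570). In S1S2 both turned, Kif11 from 0.09 to -0.25 (adjusted p = 5.54e-04) and Incenp from 0.14 to -0.20 (adjusted p = 0.00315), and the fall of Incenp in G9Gl was no longer past the test. Of the S1S2 rises, those of Cenpa (0.13, adjusted p = 0.0372) and Cenpe (0.06, adjusted p = 0.361) were no longer past the test, and Cenpf stood at 0.32. The S1S2 falls of Ttk (-0.14, adjusted p = 0.0221) and Tpx2 (-0.12, adjusted p = 0.0488) were also no longer past it. By role, the falls in S1S2 then numbered 2 of 7 at the checkpoint and 4 of 6 in chromosome structure. With these offsets 29 of 45 were lower and 1 higher in G9Gl, against 13.8% and 18.7% of all tested genes, and 12 lower and 5 higher in S1S2, against 16.0% and 19.0%. Chromosome number was not measured.

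**Figure D4:**
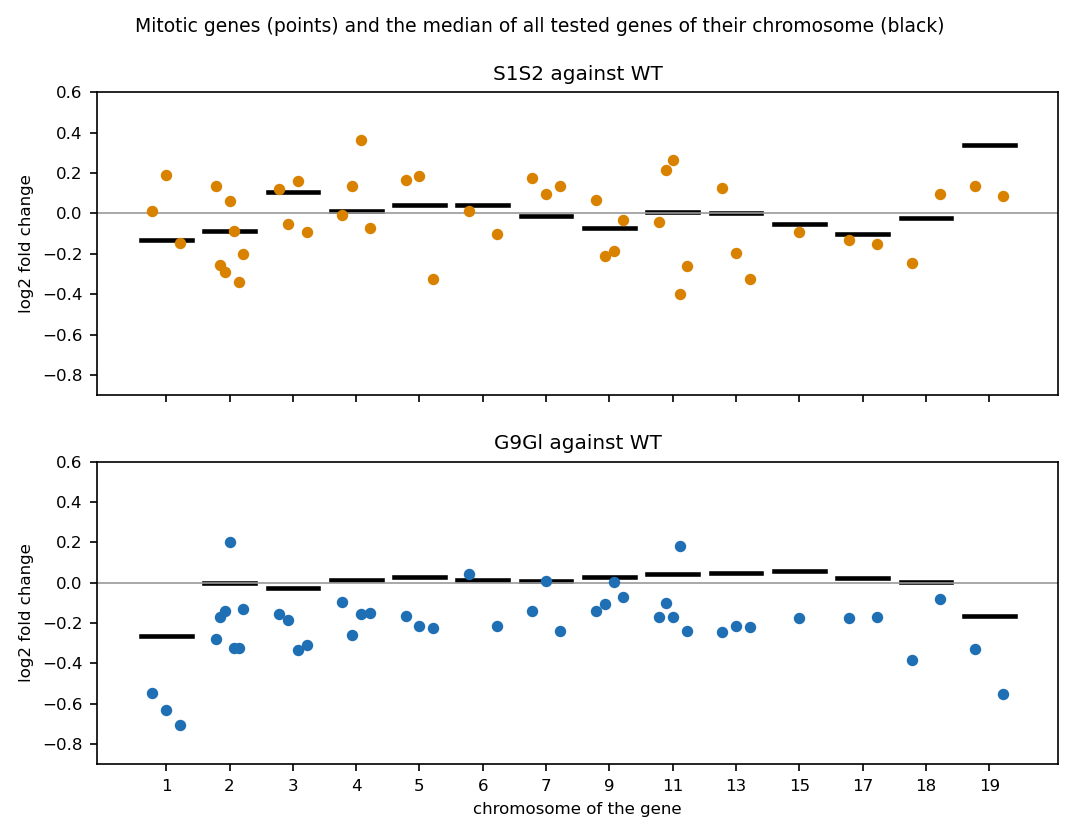
Log2 fold change of each of the 45 genes (points) by chromosome, in S1S2 (top) and G9Gl (bottom) against WT, with a black bar at the median of all tested genes of that chromosome. On chromosome 1 the bar lies at -0.26 in G9Gl with the 3 mitotic genes below it, and on chromosome 19 at 0.34 in S1S2 with both genes below it.

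Other genes of the same pathways were read from lists that share no gene with the 45. Of 50 further mitotic genes, 18 were lower and 1 higher in G9Gl, and 12 were higher and 7 lower in S1S2, with Cep55, a cytokinesis protein, at 0.60 and the kinesin Kif15 at -0.34 in S1S2. The centrosomal kinase Nek2 was at 0.37 in S1S2 and -0.43 in G9Gl. Aspm, a spindle pole protein, fell by 0.60 on the log2 scale in G9Gl. With the chromosome offsets Cep55, on chromosome 19, stood at 0.26 and Nek2, on chromosome 1, at 0.50 in S1S2 and -0.17 in G9Gl, and Aspm, on chromosome 1, at -0.34 in G9Gl. Of 24 further kinetochore genes, 10 were lower and none higher in G9Gl, led by Hjurp, the chaperone that loads Cenpa (-0.81), and Cenps (-0.70), while in S1S2 3 were higher and 4 lower, among them Cenpx (0.48) and Cenpp (-0.71). Hjurp also lies on chromosome 1 and stood at -0.55 in G9Gl with the offsets. Of 17 genes of condensin and cohesin, 9 were lower and 1 higher in G9Gl, and 8 lower and 3 higher in S1S2, and the cohesin acetyltransferase Esco2 was lower in both (-0.47 in S1S2 and -0.47 in G9Gl). Of 14 regulators of mitotic transcription, 5 were lower and none higher in G9Gl, and 3 lower and 1 higher in S1S2. Foxm1, a transcription factor of mitotic genes, was the gene that rose, by 0.88 (adjusted p = 5.85e-11), and Lin9, a MuvB subunit, was lower in both mutants (-0.43 in S1S2 and -0.52 in G9Gl, or -0.30 and -0.25 with the offsets of chromosome 1). Of 20 genes of S phase, 7 were lower and 1 higher in G9Gl, and 6 higher and 2 lower in S1S2, the cyclin gene Ccne1 rising in both (0.50 in S1S2 and 0.21 in G9Gl) and its paralogue Ccne2 falling in both (-0.27 and -0.49), as did the replication licensing gene Cdc6 (-0.31 and -0.26). The share lower in G9Gl was above the 16.0% of all tested genes in each of these lists, whereas in S1S2, with backgrounds of 20.3% higher and 17.6% lower, the shares of the further mitotic list were 24% and 14%, of the kinetochore list 12.5% and 16.7%, of condensin and cohesin 17.6% and 47.1%, of the regulators 7.14% and 21.4%, and of S phase 30% and 10%.

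**Figure D5:**
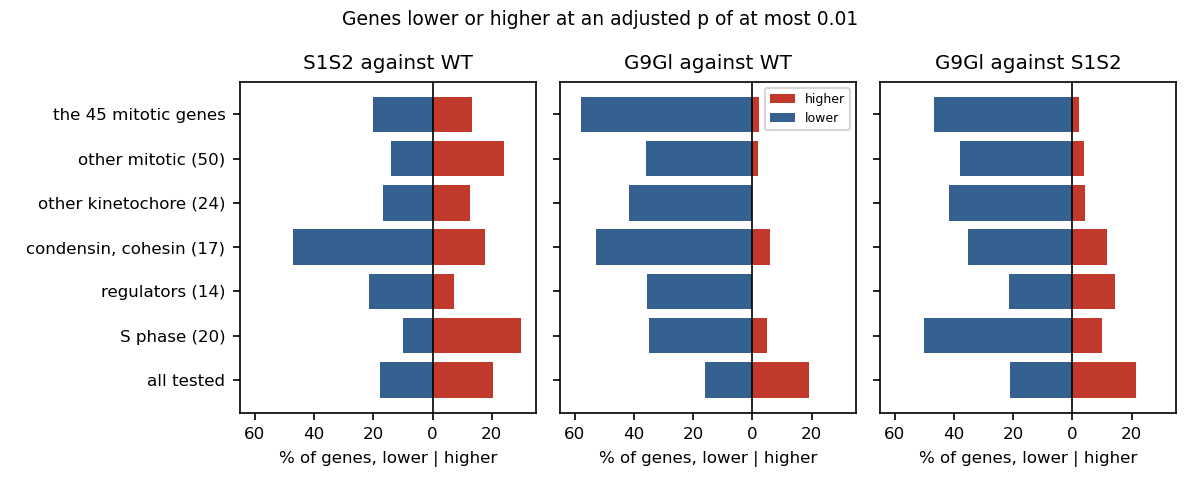
Share of genes lower (blue, left of 0) and higher (red, right of 0) at an adjusted p of at most 0.01, for the 45 mitotic genes, the 5 further lists and all 15540 tested genes, in the 3 comparisons. In G9Gl against WT and against S1S2 the blue bars of the lists are longer than that of all tested genes, except that the regulators against S1S2 (21.4%) are level with it (21.1%), while in S1S2 against WT the 45 genes are close to it.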

How the data were processed

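RNA of 9 MEF libraries was measured, 3 each of WT, S1S2 and G9Gl, grouped by their labels. The deposited values are raw counts per Ensembl gene. According to the study's methods, stranded total RNA was read as 75 bp pairs, and the authors used cutadapt for trimming, STAR 2.5.2b for alignment to GRCm38 and TEtranscripts, which keeps multiply aligned reads, for counting. The annotation release and the strand setting are not given in the sources used here, so genes with copies or antisense neighbours are uncertain. Symbols, positions and exon lengths came from GENCODE M21, which matched 47310 of 47937 genes.

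Counts were tested with edgeR 4.0.16 in R 4.3.3 (filterByExpr, TMM, glmQLFit and glmQLFTest, all 9 libraries, 1 coefficient per genotype), with Benjamini-Hochberg adjustment over 15540 genes. SEs come from the spread of log2 CPM with a prior count of 2, n = 3 per genotype. The code was tested on simulated data. The 45 genes and all lists were chosen with earlier results of these data known. Values per library are given for 1 representative of most role groups and for the 3 largest rises and falls at an adjusted p of at most 0.01 in each comparison. Sgo2a was added after its values were seen. Of each further list at most the 2 largest rises and falls are named. Alternatives were DESeq2 1.42.0, its size factors in edgeR, leaving out the filter or the TMM factors, at least 10 counts per library, only the libraries compared, an adjusted p of at most 0.05, the replicate number as a block, chromosome medians and leaving out each library. Chi-square per degree of freedom between replicates was 2.68 to 25.8, so none was counted as a duplicate. Counts cover counting and culture error only, and reads are not independent molecules.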

Additional observations from a re-analysis of the deposited data

Results flagged for a closer look

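In 4 of the 45 genes the 2 mutants moved in opposite directions from WT, each past the test (edgeR quasi-likelihood F test), where 2.76% of all tested genes were higher in S1S2 and lower in G9Gl. G9Gl was lower than S1S2 by a log2 fold change of -0.33 for Cenpa, -0.49 for Cenpe, -0.82 for Cenpf and -0.44 for Kif18b. These differences were also past the test in the direct comparison, but the genes were singled out by calls on either side of WT, which fixes the direction, so they are a description and add no support. The set of 4 changed in each alternative that refitted the counts at the same threshold. The rise of Cenpe in S1S2 was not past the threshold in 10 alternatives, nor were the falls of Cenpa and Kif18b in G9Gl by DESeq2, and across these alternatives 0 to 5 genes were past the test in opposite directions. Of the 4, Cenpf was past it in both mutants in most of them, but not without WT replicate 1, S1S2 replicate 1 or S1S2 replicate 2.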

How the results depend on the processing

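The median of the 45 genes kept its sign in every comparison and alternative run, and none of the 45 passed 2-fold in any of them. Without single libraries, the members higher in S1S2 numbered 3 to 8 and those lower 9 to 12, those higher in G9Gl 0 to 1 and those lower 18 to 25, and between the mutants 1 to 3 were higher and 19 to 22 lower. The shares of all tested genes in these fits, and in that with the replicate block below, are not given here. A change in these counts is therefore no result about the members alone. At an adjusted p of at most 0.05, 14 were higher and 16 lower in S1S2 (25.3% and 23.6% of all tested genes). In G9Gl 1 was then higher and 33 lower (24.1% and 21.8%). Between the mutants 4 were higher and 25 lower in G9Gl than in S1S2 (26.9% and 26.5%). The single member higher in G9Gl, Cenpb, was not past the threshold (0 members) with no composition factor and with only the libraries compared. Those higher in G9Gl than in S1S2 numbered 2 by DESeq2 and with only the libraries compared, and 3 with no filter, with at least 10 counts per library and without S1S2 replicate 2, which added Bub1b and Spc24. Calls were gained as well as lost: against WT, Cenpc1 in G9Gl was past the threshold in 7 alternatives, Espl1 in 6, Smc2 in 4, Bub1b, Ccnb2 and Cdc20 in 2 each and Tpx2 in 1, and in S1S2 Spc24 and Cenpk in 3 each and Aurka, Cenpc1, Cenph, Nuf2 and Plk1 in 2 each. Kif11 in S1S2 reversed to -0.25 with chromosome medians as offsets. Labels number the replicates 1 to 3, but same-numbered libraries did not deviate together (mean correlations 0.05, 0.04 and -0.05; 3 of 9 libraries correlated best with their own number). With the replicate block 2 members were higher in G9Gl than in S1S2, 7 were higher and 9 lower in S1S2 and 26 lower in G9Gl, and 14 of 15, 25 of 27 and 22 of 22 calls were shared with the unblocked fit, Cenpe being lost in S1S2 (adjusted p = 0.0104) and Aurkb and Kif18b in G9Gl (adjusted p = 0.0101 and 0.0108). The cause of these shifts was not tested. At these depths and this spread, falls in G9Gl as small as -10.3% (Ccna2) were called and falls as large as -14.2% (Cenpk) were not.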
